A study of Mus musculus with 8 samples.

Results

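The fibulins are a family of secreted glycoproteins of the extracellular matrix, built from calcium-binding EGF-like repeats and closed by a shared fibulin-type module. Of 7 family genes chosen by symbol (Fbln1, Fbln2, Fbln5, Fbln7, Efemp1, Efemp2 and Hmcn1), 6 had a probe set under their own symbol in the platform table, 1 each, out of 22187 genes measured there. Efemp2 was not analysed here. The rule went by symbol and used no measured value, but genes and lists were chosen with earlier results of these data known. The 6 genes all lay at least 2.65 log2 above the limit for dim signal, so none was lost to that filter.

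RNA came from the aorta of newborn (p0) mouse pups of an albino C57BL/6J background, either Lox knockout (KO) or wild type (WT). Lox encodes lysyl oxidase, the copper enzyme that oxidises lysines of tropoelastin and collagen so that the chains crosslink. The ascending segment ran from the aortic valve to the ductus arteriosus and the descending segment from the vena cava to the diaphragm. WT ascending, WT descending, KO ascending and KO descending each had 2 arrays, and each array held tissue pooled from 8 pups of 1 genotype. All pups carried the same background strain, and the labels name no treatment and no inducible or cell-type driver for the deletion. Values are log2 array signals, where a difference of 1 is a 2-fold difference, and are given as mean ± SD (n = 2 pools). The small number of arrays limits the precision.

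Elastic fibres form in steps. Tropoelastin coacervates at the cell surface, is carried onto fibrillin microfibrils and is then crosslinked. Fibulin-4 (Efemp2) binds both tropoelastin and lysyl oxidase and so brings enzyme and substrate together, and fibulin-5 (Fbln5) binds tropoelastin, microfibrils and integrins. Fibulin-3 (Efemp1) is another short fibulin and is better known from fascia and the eye. Fibulin-1 and fibulin-2 are longer members that bind fibronectin, basement membrane proteins and the proteoglycan versican. Fibulin-7 (Fbln7) is a cell adhesion molecule first described in teeth, and hemicentin-1 (Hmcn1, also called fibulin-6) is a very large matrix protein that shares the terminal module.

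The promoters shown belong to the member that was higher in the ascending segment (Efemp1), the member that was lower there (Fbln7) and the member with the smallest range over the 8 arrays (Fbln5). The sequences are RefSeq's for build GRCm38.p6, run 5′ to 3′ on the gene's strand, and end at the base before the annotated gene start. Capitals mark matches on either strand to the AP-1 motif TGANTCA in Efemp1, and to the GC box GGGCGG and the CCAAT box CCAAT in Fbln5. No base was shared by matches to different motifs.
Efemp1, chr11:28852955-28853153, plus strand: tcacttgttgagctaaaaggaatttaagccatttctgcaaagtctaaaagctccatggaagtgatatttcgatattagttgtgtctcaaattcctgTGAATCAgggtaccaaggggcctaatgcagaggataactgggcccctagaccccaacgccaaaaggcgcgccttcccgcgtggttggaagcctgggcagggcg
Fbln7, chr2:128863682-128863864, plus strand: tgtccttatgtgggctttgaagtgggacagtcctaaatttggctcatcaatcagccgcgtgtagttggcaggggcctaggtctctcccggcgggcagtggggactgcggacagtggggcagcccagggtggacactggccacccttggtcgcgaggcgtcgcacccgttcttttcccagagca
Fbln5, chr12:101819120-101819369, minus strand: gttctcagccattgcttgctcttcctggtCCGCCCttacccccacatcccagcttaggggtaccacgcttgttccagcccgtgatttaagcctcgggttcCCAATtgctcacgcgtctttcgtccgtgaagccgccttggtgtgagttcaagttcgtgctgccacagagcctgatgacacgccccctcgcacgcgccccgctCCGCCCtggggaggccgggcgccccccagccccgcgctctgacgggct

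The Efemp1 stretch held 1 AP-1 match, whose last base lay 97 bases before the gene start. Among 27025 RefSeq windows of 300 bases, 1 per gene, 7.93% held that motif. The Fbln5 stretch held 2 GC boxes and 1 CCAAT box, motifs found in 35.9% and 37.9% of windows. The Fbln7 stretch, of 183 bases, held no match to any motif searched. Also searched, without a match in the 3 stretches, were TATAAA (14.2% of windows), the SMAD box GTCTAGAC (0.211%), the TEAD motif GGAATG (14.6%) and the homeobox core TAATTA (5.31%). The stretches were 183 to 250 bases long, shorter than the 300-base windows, so the shares are not like for like. In their whole windows, which run past the gene start, Fbln7 held 1 CCAAT box and 1 TEAD match, and Efemp1 held 1 GC box and 1 AP-1 match. A match of letters is a description and shows no binding. GC content was 49.7% for Efemp1, 61.7% for Fbln7 and 65.2% for Fbln5.

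Every array carried the signal of an aortic wall. The smooth muscle genes Acta2 (12.42 to 12.63), Tagln (11.49 to 11.68) and Myh11 (10.55 to 10.92) were high on all 8 arrays. Other tissues were present unevenly. The lung surfactant gene Sftpc read 8.37 and 10.15 on the WT descending arrays and 4.50 to 5.07 on the other 6, and the liver gene Alb read 9.05 and 10.20 on the KO descending arrays and 7.20 to 8.57 on the others. Cd3d, a gene of thymocytes, reached 7.71 on 1 WT ascending array and lay between 4.69 and 5.78 on the others. Lox read 8.51 to 8.87 on KO and 11.24 to 11.60 on WT arrays.

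Efemp1 was higher in the ascending than in the descending aorta in both genotypes. Its signal was 9.56 and 9.25 in WT ascending pools, 7.68 and 7.94 in WT descending pools, 9.12 and 9.25 in KO ascending pools, and 7.98 and 7.91 in KO descending pools. All 4 ascending arrays lay above all 4 descending arrays, in either genotype. Group means were 9.40 ± 0.22 and 7.81 ± 0.18 in WT, and 9.18 ± 0.09 and 7.94 ± 0.05 in KO.

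The ascending segment exceeded the descending by 1.60 log2 in WT (SE 0.14, adjusted p = 0.0025 by limma), a 3.02-fold difference. In KO the excess was 1.24 (SE 0.14, adjusted p = 0.00651), or 2.36-fold. Averaged over the genotypes it was 1.42 (SE 0.10, adjusted p = 0.000261). Few genes differed as much, since 0.228% of the 16641 tested genes had a difference of at least this size in WT and 0.529% in KO. The excess itself differed between KO and WT by -0.36 (95% interval -0.81 to 0.09, adjusted p = 0.912), so a difference of the segment effect between genotypes was not resolved. The KO call did not hold without KO descending replicate 2 (adjusted p = 0.0566) or when all 28632 bright probe sets were tested together (0.0565). The WT and averaged calls held in each alternative, with differences of 1.44 to 1.75 and 1.34 to 1.496.

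Fbln7 showed the opposite order. Its signal was 6.33 and 6.24 in WT ascending pools, 6.72 and 7.08 in WT descending, 6.67 and 6.73 in KO ascending, and 7.16 and 7.15 in KO descending. Within each genotype both descending arrays lay above both ascending arrays, but the KO ascending pair overlapped WT descending. The group means ran from KO descending (7.15 ± 0.0098) through WT descending (6.90 ± 0.26) and KO ascending (6.70 ± 0.04) to WT ascending (6.28 ± 0.07).

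Averaged over the genotypes, Fbln7 fell by 0.53 log2 in the ascending relative to the descending aorta (SE 0.09, adjusted p = 0.0155), a 1.45-fold difference. Within a genotype the difference was -0.61 in WT (SE 0.13, adjusted p = 0.0678) and -0.45 in KO (SE 0.13, adjusted p = 0.173), neither past the threshold. The WT difference passed with the dim filter at the 50th percentile (adjusted p = 0.0387), a trended and robust prior (0.0306) and arrays shifted to 1 median (0.0467). The averaged call did not survive removal of WT ascending replicate 2 (adjusted p = 0.0517), KO ascending replicate 1 (0.0606), KO descending replicate 1 (0.0528) or KO descending replicate 2 (0.053), and with all probe sets tested (0.0678). Its size stayed between -0.62 and -0.44 in every alternative.

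**Figure D1:**
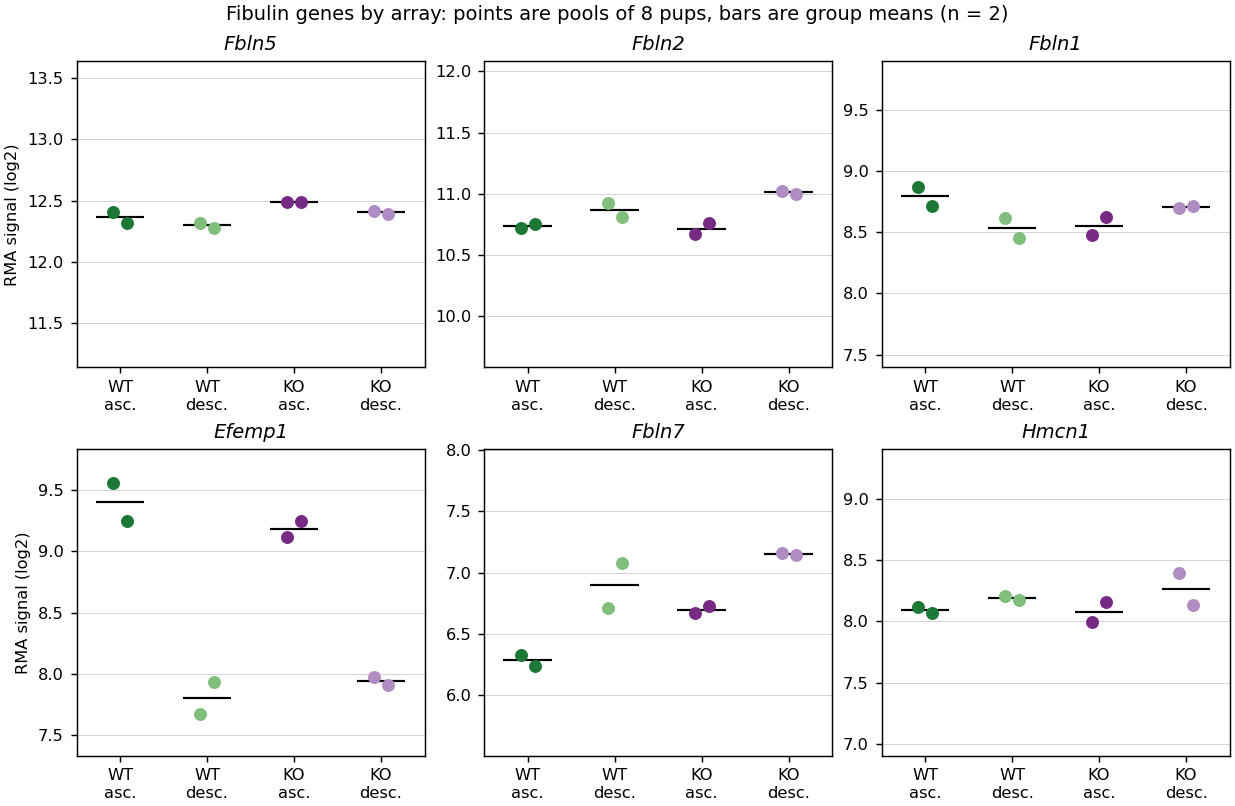
RMA signal (log2) of the 6 measured fibulin genes on each of the 8 arrays, by group of genotype and segment; each point is a pool of 8 pups, each bar a group mean, and every panel spans 2.5 log2. Efemp1 sits above 9.1 on all ascending arrays and below 8 on all descending ones, Fbln7 runs the other way, and the other 4 genes stay within 0.42 log2 over all arrays.

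Of the 6 fibulins, 1 was called between WT segments and 1 between KO segments, Efemp1 in both. Over all tested genes 1.48% were called in the WT comparison and 1.48% in the KO comparison. In the average of the genotypes 2 of 6 passed, Efemp1 higher and Fbln7 lower in the ascending aorta, against 4.07% of all genes (1.5% higher and 2.57% lower). The arrays of the segments did not overlap for 5 of 6 fibulins in WT and 5 of 6 in KO, beside 42.4% and 41% of all genes. The median fibulin differed by -0.02 in WT and -0.17 in KO, and the median of all genes by -0.0048 and -0.0016.

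The long fibulins differed less by segment. Fbln2 read 10.72 and 10.75 in WT ascending, 10.93 and 10.81 in WT descending, 10.67 and 10.76 in KO ascending, and 11.019 and 11.002 in KO descending pools. All 4 descending arrays were above all 4 ascending arrays, as for 7.27% of tested genes in one direction or the other. The averaged segment difference was -0.21 (SE 0.07, 95% interval -0.37 to -0.05, adjusted p = 0.167), which did not pass over all genes. It passed with a trended and robust prior (adjusted p = 0.0206).

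Fbln1 read 8.87 and 8.71 in WT ascending, 8.61 and 8.45 in WT descending, 8.48 and 8.63 in KO ascending, and 8.69 and 8.72 in KO descending pools. The segments were thus ordered one way in WT and the other way in KO, without overlap within a genotype. The difference was 0.26 in WT (SE 0.11, adjusted p = 0.412) and -0.15 in KO (SE 0.11, adjusted p = 0.697). The test of that change of direction gave -0.41 (SE 0.16, unadjusted p = 0.0327, adjusted p = 0.862) and did not pass. No gene passed it: limma called 0 of 16641 genes in the interaction, with 933 at an unadjusted p under 0.05, 1 of them a fibulin.

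Fbln5 and Hmcn1 did not pass in any segment comparison. Fbln5 read 12.41 and 12.32 in WT ascending, 12.32 and 12.28 in WT descending, 12.49 and 12.49 in KO ascending, and 12.42 and 12.39 in KO descending pools. Its range over the 8 arrays was 0.21 log2, smaller than that of all but 5.02% of tested genes, whose median range was 0.48. Its mean signal of 12.39 lay at percentile 99.9 of measured genes. Whether so high a signal narrowed the range was not tested. The averaged segment difference was 0.07 (95% interval -0.08 to 0.23), and the KO arrays of the segments did not overlap. Hmcn1 read 8.12 and 8.07, then 8.21 and 8.17, then 7.997 and 8.16, then 8.40 and 8.13 in the groups in the same order, and its averaged segment difference was -0.14 (interval -0.34 to 0.05), with no overlap of the WT arrays.

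**Figure D2:**
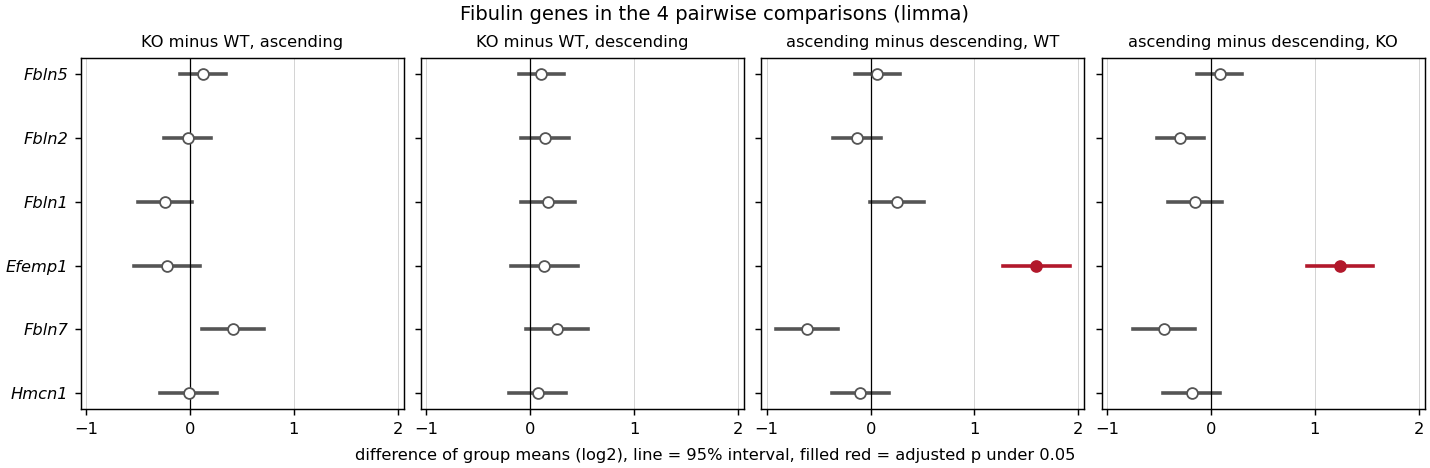
Differences of group means (log2) for the 6 fibulin genes in 4 comparisons, with 95% intervals from limma; filled red points passed an adjusted p of 0.05. The 2 red points are Efemp1, at 1.60 in WT and 1.24 in KO, and no KO minus WT difference passed in either segment.

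Other tissues and cell types moved with the segments too. Fat genes averaged 8.24 to 8.50 in WT descending and 6.999 to 7.71 in WT ascending arrays, and 7.43 to 7.80 against 6.53 to 6.67 in KO. Of 8 fat genes tested, 1 fell in the ascending WT aorta and 2 in the ascending KO aorta, and of 10 endothelial genes 2 fell in each. Over all genes 1.48% were called in either direction in each genotype. In the average of the genotypes 6 of 8 fat genes (median -1.07 log2), 5 of 10 endothelial genes (median -0.26) and 2 of 8 heart muscle genes (median -0.71) fell in the ascending aorta, beside 2.57% of all genes. The heart muscle genes Nppa (1.68) and Tnnt2 (0.38) were higher there but did not pass. In bulk tissue, fewer cells of a type and less RNA per cell cannot be told apart. Of the 9 fibroblast and adventitia genes tested 0 passed in either genotype (medians 0.02 and -0.05 log2), nor did any of 8 mesothelial genes (0; medians -0.06 and 0.06) or 10 smooth muscle genes (0; medians 0.01 and 0.01). In the genotype average, the mesothelial gene Msln rose by 0.44 (adjusted p = 0.0494) in the ascending aorta, as did 2 of the 10 smooth muscle genes, Lmod1 by 0.43 (adjusted p = 0.0196) and Myocd by 0.34 (adjusted p = 0.043). Among the 6 lung genes, Sftpc fell by 4.60 in the ascending WT aorta (adjusted p = 0.00351). Sftpc lay at 4.56 to 5.07 on the 4 KO arrays. Of 10 liver genes, 1 rose in the ascending WT aorta (Ahsg, 2.05, adjusted p = 0.0358 by limma; median 0.35). In KO 1 fell there (Serpina1d, -1.72, adjusted p = 0.0387; median -1.29). Of 6 thymus and lymphocyte genes 0 passed in either genotype (medians 0.97 in WT and 0.27 in KO). The part of fat, endothelial, heart muscle, smooth muscle, mesothelial, lung, liver and thymus cells in the Efemp1 and Fbln7 differences was not tested.

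The genes whose profile over the 8 arrays lay closest to that of Efemp1 were Dgkk, a diacylglycerol kinase, Flrt3, a leucine-rich repeat transmembrane protein, and Kcnj15, an inward rectifier potassium channel. Likeness was the root mean square difference over 8 arrays after each gene was centred on its own mean, among 14559 other named genes. It was 0.19 log2 for Dgkk, 0.19 for Flrt3 and 0.25 for Kcnj15. The gap between replicate Efemp1 arrays, a different measure, was at most 0.31 (WT ascending), with a median of 0.19 over the groups. Flrt3 had group means of 7.51 in WT ascending, 5.82 in WT descending, 6.99 in KO ascending and 5.81 in KO descending pools. The rule covered members whose group means spanned at least 1 log2, a span that 3.35% of tested genes reached, and Efemp1 (1.60) was the only such fibulin.

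No measured fibulin was called between KO and WT. In the ascending aorta 0 of 6 passed by limma, beside 2.73% of all genes, and 1 had an unadjusted p under 0.05. In the descending aorta 0 of 6 passed, beside 2.28% of all genes, and 0 had an unadjusted p under 0.05. Averaged over segments 0 of 6 passed, beside 11.4% of all genes, with 1 at an unadjusted p under 0.05. KO and WT arrays did not overlap for 3 of 6 fibulins in the ascending and 4 of 6 in the descending aorta, near the 49.5% and 51.1% of all genes. On the KO descending arrays 7 of 10 liver genes rose (median 2.14 log2), and 2 of 6 lung genes fell (median -0.93). Among them, Sftpc fell by 4.35 (adjusted p = 0.0058). In the ascending aorta, 4 of 11 neutrophil and macrophage genes and 1 of 6 erythroid genes rose in KO. There 3 of 8 fat, 2 of 10 endothelial and 2 of 9 fibroblast and adventitia genes fell. The part of these cell types, and of liver and lung, in the fibulin differences was not tested.

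Fbln7 came closest. In the ascending aorta its KO pools, at 6.67 and 6.73, lay above the WT pools, at 6.33 and 6.24, a difference of 0.42 (SE 0.13, adjusted p = 0.131). These WT ascending arrays also enter the WT segment comparison. In the descending aorta the KO excess was 0.26 (SE 0.13, adjusted p = 0.334). The average over segments was 0.34 (SE 0.09, unadjusted p = 0.00591, adjusted p = 0.051), or 1.26-fold, with the 2 KO pools above the 2 WT pools in each segment. It passed with the dim filter at the 50th percentile (adjusted p = 0.0276), a trended and robust prior (0.031), arrays shifted to 1 median (0.0443) and without WT descending replicate 2 (0.0294).

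Fbln5, the elastogenic fibulin, differed by 0.12 in the ascending (95% interval -0.09 to 0.34, adjusted p = 0.534) and 0.11 in the descending aorta (-0.11 to 0.33, adjusted p = 0.604). The KO pools were above the WT pools in both segments, and 27.1% of tested genes had a smaller span of group means. Efemp1 differed by -0.22 (interval -0.54 to 0.10) in the ascending and 0.14 (-0.18 to 0.46) in the descending aorta, and its arrays overlapped in both. Fbln1 differed by -0.24 (-0.50 to 0.02) in the ascending and 0.17 (-0.09 to 0.43) in the descending aorta, with no overlap of arrays in either.

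Fbln2 differed by -0.02 (-0.25 to 0.21) in the ascending and 0.14 (-0.09 to 0.37) in the descending aorta. Hmcn1 differed by -0.01 (-0.29 to 0.26) and 0.07 (-0.20 to 0.35). Over the 6 fibulins and both segments, the widest bounds of these intervals were -0.54 and 0.71 log2, so differences beyond 1.64-fold higher or 1.45-fold lower lay outside each of them. In the descending aorta all 6 differences were above 0, with a median of 0.14 against -0.0057 for all genes. In the ascending aorta 2 were above 0 and 4 below.

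**Figure D3:**
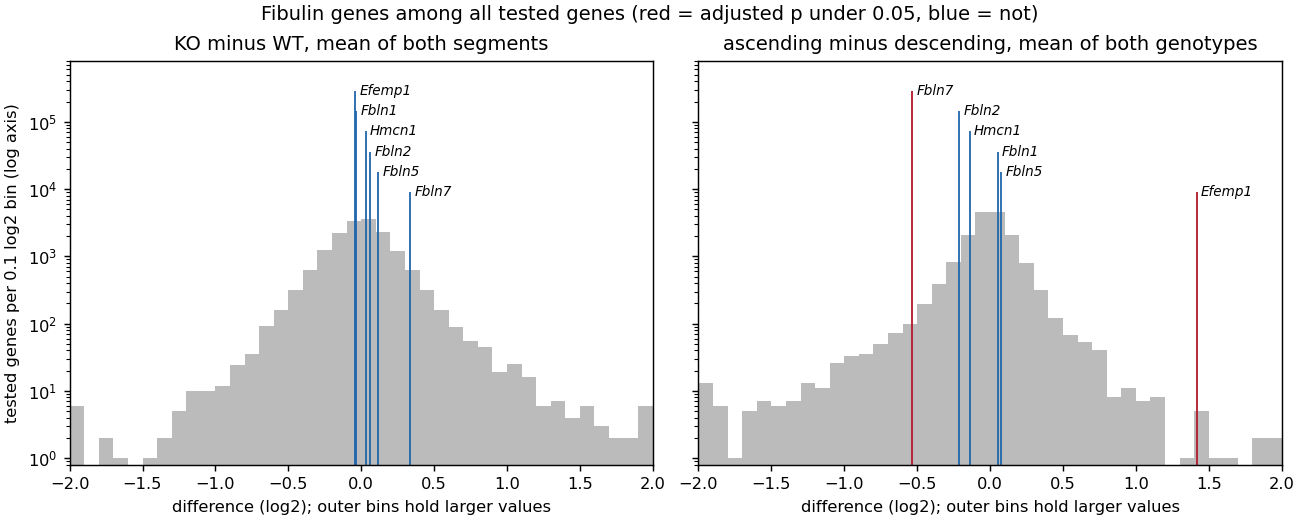
Number of tested genes (log axis) per bin of 0.1 log2 for KO minus WT averaged over segments and for ascending minus descending averaged over genotypes, with the 6 fibulins as lines whose height only separates the names. For KO minus WT the fibulins lie between -0.04 and 0.34, and 12.9% of genes differed by at least as much as Fbln7 (0.34) in either direction. Efemp1 at 1.42 lies in the upper tail of the segment difference.

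Of 22 tested partners of elastic fibre assembly, 4 rose and 2 fell in KO averaged over segments, and 16 did not pass, beside 6.2% of all genes higher and 5.21% lower. The median was 0.17 log2, against 0.0036 for all genes. Both partner lists were written with earlier results of these data known, so their counts beside the all-gene shares are a description. The 2 that fell included Lox, the deleted gene, whose fall of 2.76 (adjusted p = 2.65e-06 by limma) was set by the design. Ltbp2, which binds fibrillin microfibrils and fibulin-5, rose by 0.57 (SE 0.07, adjusted p = 0.00296), and Loxl3, a related crosslinking enzyme, by 0.41 (SE 0.07, adjusted p = 0.00992). Emilin1, an elastin interface glycoprotein, rose by 0.38 (adjusted p = 0.023), Adamtsl2 rose by 0.47 (adjusted p = 0.038), and Tnxb, tenascin-X, fell by 0.33 (adjusted p = 0.0266). Eln differed by 0.17 (SE 0.08, adjusted p = 0.218), and Loxl2, read from a probe set shared with Gm21451, by 0.24 (adjusted p = 0.159). Fbn1 was not analysed here. The lowered Lox and the raised Ltbp2 and Loxl3 passed in each of 17 alternatives, whereas Emilin1, Adamtsl2 and Tnxb did not.

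Among 25 other tested binding partners, 4 rose and 3 fell in KO averaged over segments, with a median of -0.0051, beside 6.2% of all genes higher and 5.21% lower. Itga4 (1.13, adjusted p = 0.000691) and Itgb3 (0.58, adjusted p = 0.00447), integrin subunits of which the second pairs with the alpha V chain that binds fibulin-5, rose. Vcan, the versican core protein bound by fibulin-1 and fibulin-2, fell by 0.53 (SE 0.07, adjusted p = 0.00508), and Egfr, a receptor reported to bind fibulin-3, fell by 0.46 (adjusted p = 0.00959). These 4 calls held in each of 17 alternatives. On the same arrays 8 of 11 neutrophil and macrophage genes rose, 5 of 8 fat genes fell and 5 of 10 endothelial genes fell, and their part in the partner differences was not tested. Of 9 fibroblast and adventitia genes 2 fell, Pdgfra (-0.57, adjusted p = 0.00722) and Dpt (-0.60, adjusted p = 0.00482), 1 rose, Pi16 (0.31, adjusted p = 0.0378), and 6 did not pass.

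By segment, 0 of the 22 elastic fibre partners passed in WT, in KO or in the average (medians 0.17, -0.05 and 0.06). Of the other 25 partners, 4 rose and 0 fell in the ascending aorta in the average, beside 1.5% of all genes higher and 2.57% lower. They were Acan, the aggrecan core protein (0.71, adjusted p = 0.00277), Sod3, the extracellular superoxide dismutase that fibulin-5 binds (0.57, adjusted p = 0.00831), Adamts1, a protease for which fibulin-1 is a cofactor (0.45, adjusted p = 0.0196), and Itga4 (0.40, adjusted p = 0.0498). Acan and Sod3 passed in each of 17 alternatives, and Adamts1 and Itga4 did not. The Efemp1 difference of 1.42 was larger than that of each partner.

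**Figure D4:**
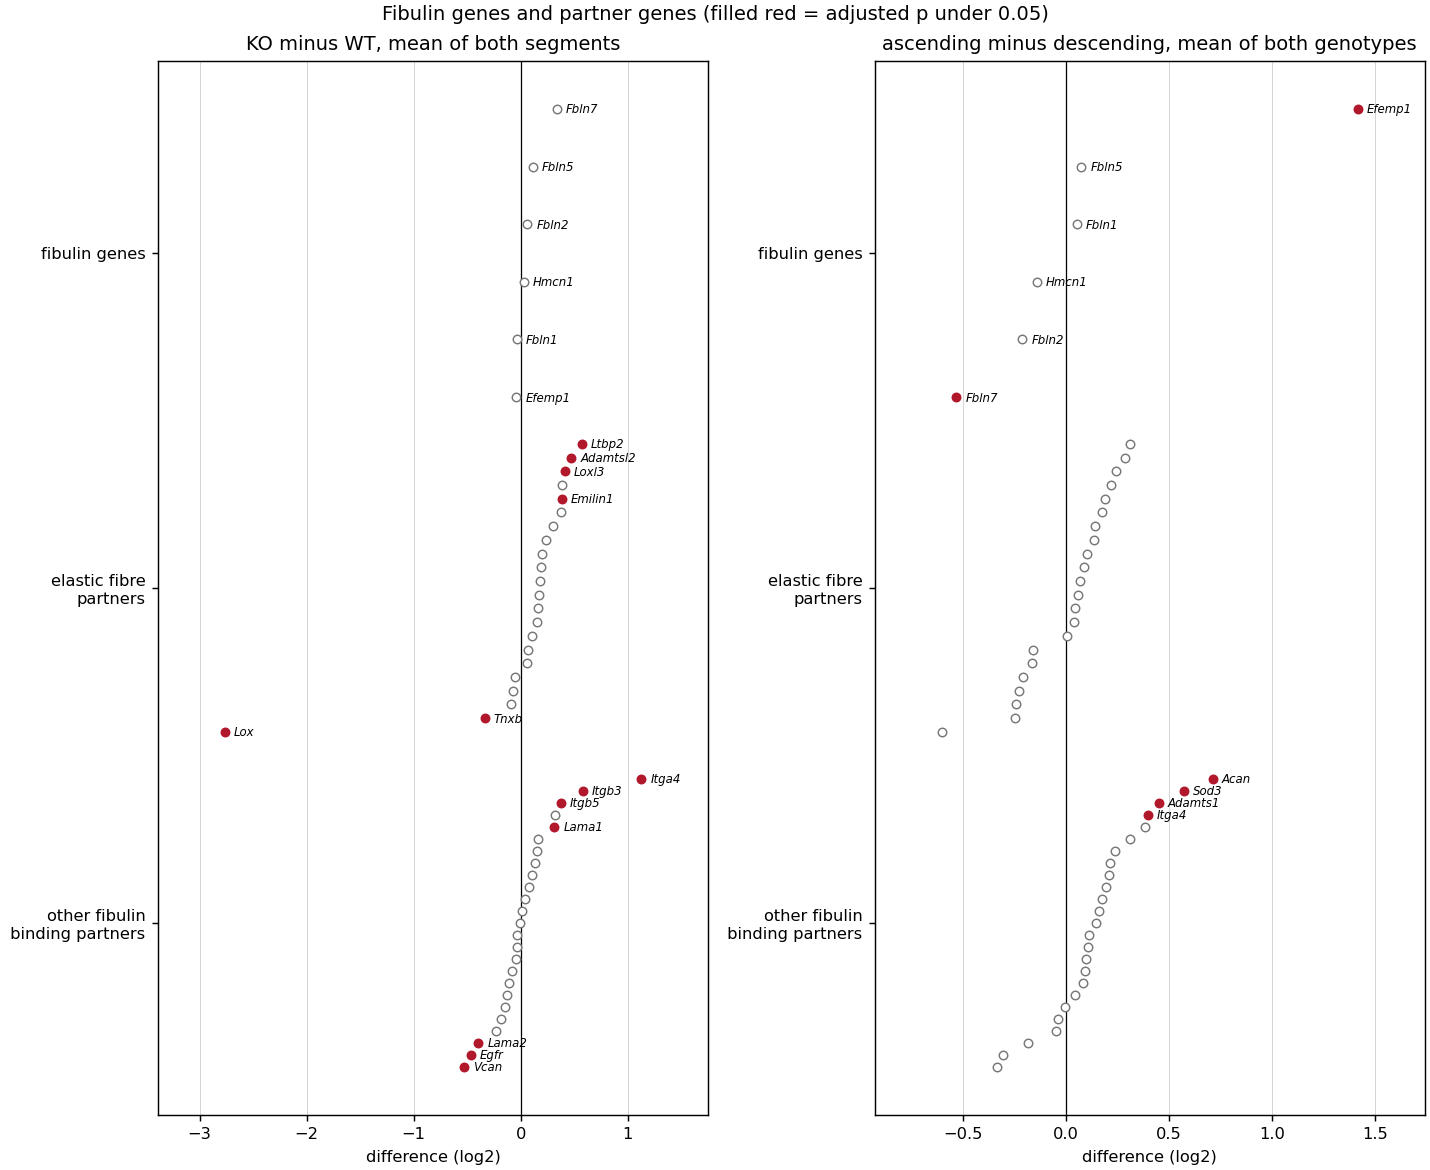
Differences (log2) of the 6 fibulins, 22 elastic fibre partners and 25 other binding partners for KO minus WT averaged over segments and ascending minus descending averaged over genotypes; filled red points passed an adjusted p of 0.05 by limma. Lox (-2.76) is the deleted gene. Partners such as Itga4 (1.13) and Vcan (-0.53), from lists written with earlier results of these data known, moved with genotype while no fibulin passed. By segment, Efemp1 (1.42) and Fbln7 (-0.53) passed.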

How the data were processed

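Total RNA was amplified, biotin labelled and hybridised to 8 arrays, per the labels' protocols. Per the submitters' processing notes, the authors ran RMA (Affymetrix Expression Console), and the deposited values are log2. Software versions: not given in the sources used here. In all, the table held 41345 probe sets, 23525 of them with 1 gene symbol in the platform annotation. Each gene took its brightest single-symbol probe set, or, for a listed gene without one, its brightest shared probe set. Genes below the 25th percentile of mean signal (4.11 log2) were left out, leaving 16641. All arrays entered 1 limma model with a mean for each group (limma 3.58.1, R 4.3.3), and p-values were adjusted by Benjamini-Hochberg over all genes tested. A gene is called at an adjusted p under 0.05. The method was tested on simulated data. No column of values was left unused (0). P-values rest on the spread between pools within groups, estimated over all 4 groups together (4 residual degrees of freedom). In limma this spread was moderated toward that of all tested genes (4.5 prior degrees of freedom). Each group had 2 pools of pups. Genes and lists were chosen with earlier results of these data known. The genes named were the family, up to 4 called partners per list, Eln, Lox and Vcan, up to 3 nearest profiles and leading cell type markers; Loxl2, Adamtsl2, Tnxb and the values of Acta2, Tagln, Myh11, Alb and Cd3d were added after their values were seen. Figures were drawn with matplotlib 3.10.9.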

Additional observations from a re-analysis of the deposited data

Results flagged for a closer look

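Fbln1 was the fibulin whose KO and WT arrays lay apart in opposite directions in the 2 segments, with every KO ascending array below every WT ascending array (-0.24) and every KO descending array above every WT descending array (0.17). KO and WT arrays lay apart for 49.5% of all genes in the ascending and 51.1% in the descending aorta. The share of genes apart in opposite directions was not counted. The difference also changed sign between the segments for Efemp1 (-0.22 ascending, 0.14 descending), Fbln2 (-0.02, 0.14) and Hmcn1 (-0.01, 0.07), whose KO and WT arrays overlapped in at least 1 segment. The ascending minus descending difference of Fbln1 likewise ran in opposite directions in WT (0.26) and KO (-0.15). The change of direction was tested once for both, as the interaction, and gave -0.41 (SE 0.16, adjusted p = 0.862 by limma), which did not pass.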

How the results depend on the processing

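Beside the fit reported, 10 other settings and 8 fits with 1 array left out were run. Of 738 repeats of the 42 member differences, 704 kept direction and side of the threshold, 7 lost a call, 9 gained one and 18 changed sign, none of them a call. The number of fibulins called between WT segments, 1 as reported, was 2 with the dim filter raised to the 50th percentile, with a trended and robust prior and with arrays shifted to 1 median, Fbln7 being the one gained. Between KO segments it was 1 as reported, 2 with the trended prior and 0 with all probe sets tested. For KO against WT averaged, 0 as reported, it was 1 with the 50th percentile filter, the trended prior and the shifted medians. For the segments averaged, 2 as reported, it was 3 with the trended prior and 1 with all probe sets tested. With 1 array left out, these counts ranged from 1 to 1, 0 to 1, 0 to 1 and 1 to 2 in that order, and stayed at 0 for KO against WT in each segment and for the interaction. Scaling turned the sign of near-zero values, since Hmcn1 in KO against WT ascending was 0.0081 with cyclic loess and 0.0072 with shifted medians, and Fbln5 in the interaction was -0.0244 with cyclic loess. Leaving out 1 array turned the sign for Hmcn1 in KO against WT ascending (-0.0948 to 0.0690), descending (-0.0591 to 0.207) and averaged (-0.0360 to 0.0969), Fbln2 in KO against WT ascending (-0.0665 to 0.0245), and Fbln1 (-0.0740 to 0.0063) and Efemp1 (-0.120 to 0.0368) in KO against WT averaged. In the interaction it turned Fbln5 (-0.0287 to 0.0637), Fbln7 (-0.0221 to 0.339) and Hmcn1 (-0.220 to 0.0461), and among partners Eln in KO against WT descending (-0.0172 to 0.155). Of 34 partner calls, 12 were kept in each alternative and 22 lost in at least 1. The causes were not tested. The replicate number used as a block changed no member's call, with 1 fibulin called between WT segments and 1 between KO segments. The deviations of same-numbered arrays from their group means correlated by -0.09 to 0.12. Whether same-numbered pools of a genotype came from the same pups cannot be told from this and was not tested.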
